A study of Homo sapiens with 8 samples.

Results

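The accessible chromatin around 4 genes of the GATA type, TRPS1, GATA2, GATA3 and GATA6, was followed in MCF10A cells through 72 h of TGFβ1. TRPS1 was chosen by its readout. It was the nearest gene for 18 distal regions that had a peak after 72 h of TGFβ1 and none in solvent, more than any other gene, with CASC15 next at 17. The 3 GATA genes, of the same zinc finger family, were nearest to 0 such regions. The deposited peak lists were merged wherever peaks shared at least 1 bp, and a region belonged to a gene when it overlapped the gene body or the 100 kb on either side of it. By this rule 90 of 126658 merged regions belonged to the 4 windows, with 46 in the TRPS1 window, 15 in that of GATA2, 14 in that of GATA3 and 15 in that of GATA6. TRPS1 (ENSG00000104447.13) is a long gene at chr8:115408496-115809673 of GRCh38 on the minus strand, and its window spans 601 kb. GATA2 (ENSG00000179348.13) lies at chr3:128479427-128493201 on the minus strand in a window of 214 kb. GATA3 (ENSG00000107485.18) lies at chr10:8045378-8075198 on the plus strand in a window of 230 kb, and GATA6 (ENSG00000141448.11) at chr18:22169589-22202528 on the plus strand in a window of 233 kb.

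MCF10A is an immortalised, non-tumorigenic human mammary epithelial line with basal features. All cells were wild type and were grown in medium with horse serum, EGF, insulin, hydrocortisone and cholera toxin. They received 5 ng/ml of recombinant human TGFβ1 for 6, 24 or 72 h, or the matching volume of solvent (BSA in PBS), with 2 replicates in each of the 4 groups. The solvent group is labelled as time 0, whereas the treatment scheme kept solvent on for 72 h. Accessibility came from ATAC-seq, where transposase cuts mark open DNA. Peaks had been called on both replicates of a group together, so that each group is 1 list with no replicate error. No test between groups was therefore possible from these lists, the lists carry no read depth, and every difference below is one between 2 lists. The authors separately tested read counts within peaks between TGFβ1 and solvent, and those results were not used here.

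The solvent list held 86209 peaks, and the lists for 6, 24 and 72 h held 107656, 118433 and 116720. Peak signal is the area under the significance curve (AUC), which depends on peak width as well as height and had not been scaled between lists. It was therefore divided by 1.36, 1.30 and 1.19 at 6, 24 and 72 h, the median ratio to solvent at regions within 3 kb of a transcriptional start site (TSS) with a peak in both lists. A region is called gained when it has a peak under TGFβ1 and none in solvent, lost in the reverse case, and shared when it has both. On this scaled AUC, the peak threshold of 200 in solvent corresponds to 147, 154 and 169 in the TGFβ1 lists. A weak region can therefore be listed under TGFβ1 and fall short in solvent at the same scaled AUC. The 3 TGFβ1 comparisons share the solvent list. All 8 basal mammary markers examined, such as KRT5 and TP63, had a peak at a TSS in solvent, although that of TP63 was weak, at 245. Of 4 luminal hormone receptor positive markers 2 had one in solvent, FOXA1 at 5216 and ESR1 at 298. None of 3 leukocyte and none of 2 endothelial markers had one in any list. Of the 5 fibroblast markers 3 did in solvent, and DCN, which encodes decorin, was without a TSS peak in every list. The summed unscaled AUC of the fibroblast TSS peaks was 4580 in solvent, of which COL1A1 held 3724, and 7435 to 7809 under TGFβ1. That of the basal ones was 40261 and 55003 to 59381. Without the division by 1.36, 1.30 and 1.19 these sums are not comparable between lists. The part of either in the results was not tested.

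GATA factors are zinc finger proteins that bind DNA at the core letters GATA and open or hold open enhancers of cell identity genes. GATA3 maintains luminal fate in the mammary gland, GATA2 acts in blood and endothelial progenitors, and GATA6 acts in endoderm, heart and several epithelia. TRPS1 carries a single GATA-type zinc finger and occupies the same kind of site, but it represses transcription through co-repressor complexes and is abundant in breast epithelium. TGFβ1 signals through SMAD proteins and drives mammary epithelial cells towards a mesenchymal state, with AP-1 factors such as JUNB as partners.

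Sequences of 9 regions that carry the differences described below for the 3 GATA genes are shown first, as the summit of the strongest peak of each region with 100 bp on either side, on the plus strand of GRCh38 and written 5′ to 3′. Capitals mark matches on either strand to the AP-1 motif (TGACTCA or TGAGTCA), the GATA motif (AGATAA or AGATAG or TGATAA or TGATAG), the TEAD motif (GGAATG) or the palindromic SMAD motif (GTCTAGAC or GTCTGGAC). Distances are from the main TSS of the gene, the one nearest the summit of its strongest promoter region in solvent. None of these windows touches an annotated UTR. In the first 5, and in the GATA6 region 33.0 kb upstream, accessibility was higher under TGFβ1. The GATA6 region 17.4 kb downstream had no peak in solvent, and the GATA3 region 5.98 kb downstream and the GATA6 region 43950 bp downstream were at their lowest at 72 h and 24 h.
GATA2, 59.7 kb upstream (chr3:128547468-128547668): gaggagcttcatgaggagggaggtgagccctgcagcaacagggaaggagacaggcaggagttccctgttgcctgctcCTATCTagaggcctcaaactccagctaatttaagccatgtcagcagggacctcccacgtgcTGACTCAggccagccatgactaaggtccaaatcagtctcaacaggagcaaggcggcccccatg
GATA2, 61.5 kb upstream (chr3:128549321-128549521): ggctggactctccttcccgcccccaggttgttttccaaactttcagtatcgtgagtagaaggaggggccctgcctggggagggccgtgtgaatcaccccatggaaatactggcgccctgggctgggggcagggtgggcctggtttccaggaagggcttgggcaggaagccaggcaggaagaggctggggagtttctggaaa
GATA2, 66.3 kb upstream (chr3:128554127-128554327): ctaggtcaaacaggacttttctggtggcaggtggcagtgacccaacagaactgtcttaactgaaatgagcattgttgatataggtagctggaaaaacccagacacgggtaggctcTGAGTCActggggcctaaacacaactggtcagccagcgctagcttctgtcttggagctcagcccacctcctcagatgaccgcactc
GATA3, 105 kb downstream (chr10:8158555-8158755): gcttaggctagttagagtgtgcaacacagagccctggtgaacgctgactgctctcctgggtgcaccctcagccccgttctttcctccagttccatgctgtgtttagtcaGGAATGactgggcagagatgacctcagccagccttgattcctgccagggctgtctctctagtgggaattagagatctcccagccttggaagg
GATA3, 106 kb downstream (chr10:8160004-8160204): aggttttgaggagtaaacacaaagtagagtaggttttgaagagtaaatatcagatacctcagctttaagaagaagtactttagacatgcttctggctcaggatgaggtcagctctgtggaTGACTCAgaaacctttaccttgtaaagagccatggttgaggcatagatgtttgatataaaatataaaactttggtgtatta
GATA3, 5.98 kb downstream (chr10:8059482-8059682): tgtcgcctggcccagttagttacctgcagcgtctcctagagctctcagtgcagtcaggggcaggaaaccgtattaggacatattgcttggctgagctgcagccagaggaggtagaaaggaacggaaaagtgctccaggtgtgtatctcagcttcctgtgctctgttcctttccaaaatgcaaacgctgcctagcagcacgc
GATA6, 33.0 kb upstream (chr18:22136510-22136710): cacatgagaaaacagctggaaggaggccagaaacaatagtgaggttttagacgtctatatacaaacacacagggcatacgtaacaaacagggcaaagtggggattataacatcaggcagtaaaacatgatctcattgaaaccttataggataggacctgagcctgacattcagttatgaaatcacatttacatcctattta
GATA6, 17.4 kb downstream (chr18:22186853-22187053): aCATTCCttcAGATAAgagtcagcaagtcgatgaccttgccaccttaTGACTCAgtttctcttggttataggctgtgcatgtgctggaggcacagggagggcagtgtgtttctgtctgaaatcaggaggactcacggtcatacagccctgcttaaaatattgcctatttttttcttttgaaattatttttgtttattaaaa
GATA6, 43950 bp downstream (chr18:22213439-22213639): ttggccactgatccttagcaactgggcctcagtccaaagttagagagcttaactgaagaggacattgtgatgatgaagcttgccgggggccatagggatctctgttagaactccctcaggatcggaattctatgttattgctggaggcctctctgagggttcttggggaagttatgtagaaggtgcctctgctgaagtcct

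No single motif was common to the regions with higher accessibility. Of the 3 upstream GATA2 sequences, the one at 59.7 kb held an AP-1 and a GATA match, the one at 66.3 kb an AP-1 match, and the one at 61.5 kb had no match. The GATA3 sequence at 105 kb held a TEAD match close to its summit, and its neighbour at 106 kb an AP-1 match. In the GATA6 intron, 17.4 kb downstream, AP-1, GATA and TEAD matches stood together on one side of the summit, in the outer part of the sequence shown. The GATA6 sequence 33.0 kb upstream held no match, and neither did the sequences at GATA3 5.98 kb and GATA6 43950 bp downstream.

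In the TRPS1 window the number of accessible regions went from 21 in solvent to 40 at 6 h and 34 at 24 and 72 h, while the regions already open in solvent had median log2 ratios between -0.05 and 0.05. In bulk chromatin, more cells with an open region and a more open region in each cell cannot be told apart. These counts come from the contrast that chose TRPS1 and are given as a description. Gained regions numbered 19 of 40 with a peak in either list at 6 h (47.5%), 14 of 35 at 24 h (40.0%) and 16 of 37 at 72 h (43.2%). Over all regions 22.9% were gained at 6 h, 29.8% at 24 h and 29.3% at 72 h. By class these shares were 26.8, 35.2 and 35.4% for distal regions and 16.2, 19.7 and 17.8% for proximal ones. Of the 46 TRPS1 regions 37 were distal. Exact 95% binomial intervals, which cover counting error only, run from 31.5 to 63.9% at 6 h for TRPS1. Those of the later lists, 23.9 to 57.9% and 27.1 to 60.5%, include the share over all regions. Most gained TRPS1 regions were distal, 17, 14 and 15 at the 3 times.

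The gained TRPS1 regions were weak. Their median scaled AUC was 208, 302 and 354 at 6, 24 and 72 h, against 1194, 1150 and 1322 for the regions shared with solvent. Only 10, 9 and 13 of them reached a scaled AUC of 200, the threshold of the solvent list, which makes 25.0, 25.7 and 35.1% of regions with a peak in either list. Over all regions this stricter count gave 14.3% at 6 h, 22.6% at 24 h and 24.9% at 72 h. When every list was shortened to the length of the solvent list, the gained TRPS1 regions numbered 2, 6 and 8 and the lost ones 1, 4 and 5.

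Among 15660 protein-coding genes with at least 10 regions in their windows, TRPS1 had more gained regions than 99.9, 98.7 and 99.3% of genes at 6, 24 and 72 h. TRPS1 was chosen for its number of gained distal regions at 72 h, so these ranks are a description that follows from the choice. Its window is also long. Per 100 kb it held 3.16, 2.33 and 2.66 gained regions, where the median gene had 1.16, 1.49 and 1.39. On that measure 97.5% of genes were below it at 6 h, 78.2% at 24 h and 89.2% at 72 h.

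**Figure D1:**
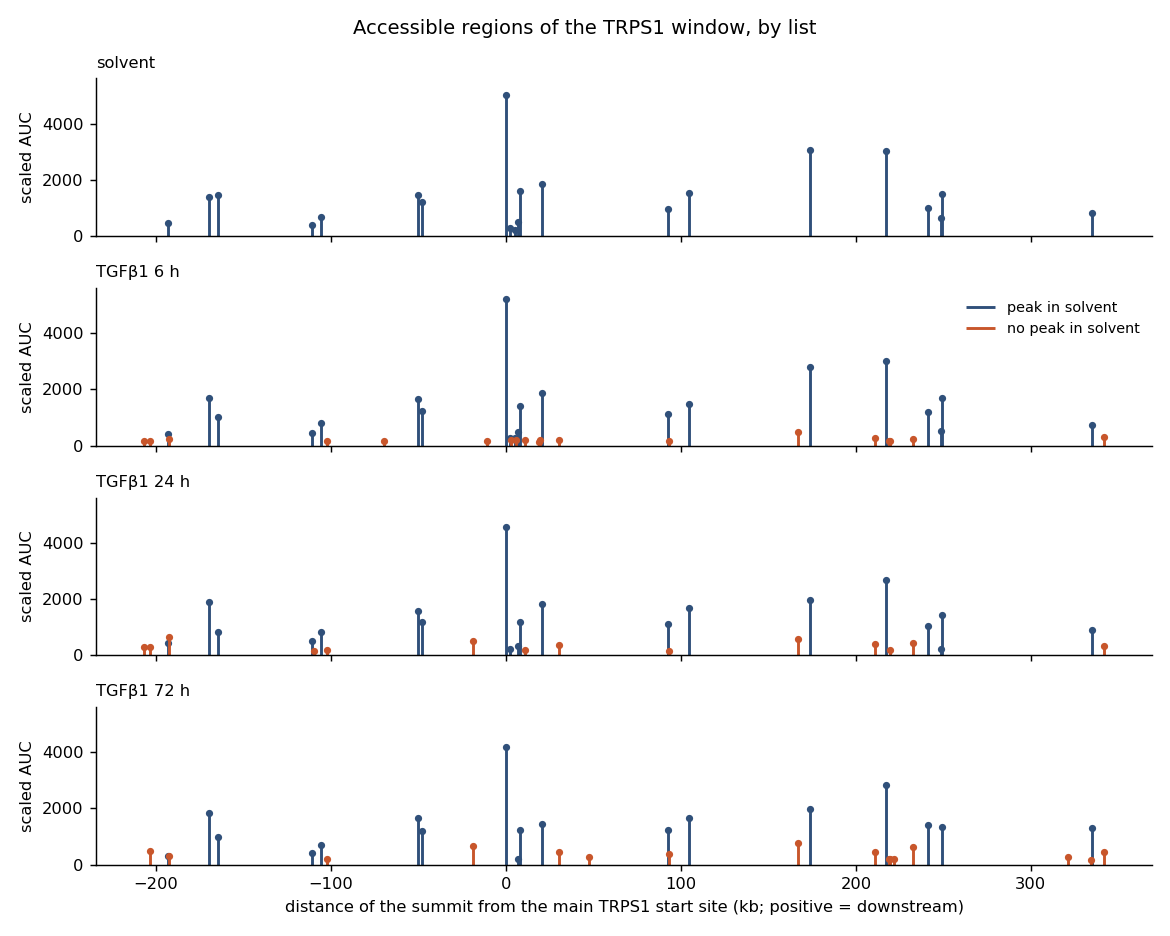
Scaled AUC (vertical axis) of every accessible region of the TRPS1 window against the distance of its summit from the main TRPS1 start site in kb, 1 panel per list. The promoter region, 2629 bp wide, has the largest scaled AUC in each list, at 5024 in solvent and 4195 at 72 h. The regions without a solvent peak reach at most 769.

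The TRPS1 promoter region, 2629 bp around the main TSS (chr8:115667138-115669766), had the highest scaled AUC of the window in each list. It measured 5024 in solvent and 5222, 4541 and 4195 in the 3 TGFβ1 lists by time. The next strongest region in solvent, in an intron 174 kb downstream of the main TSS and 1789 bp from another TRPS1 TSS, measured 3046 in solvent and 2808, 1966 and 1976 under TGFβ1. It was thus lower at 24 and 72 h, with a log2 ratio of -0.62 at 72 h. An intronic region 217 kb downstream stayed between 2679 and 3013 in the 4 lists.

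Of the 18 TRPS1 regions shared at 72 h, 9 were higher and 9 lower than in solvent, with a median log2 ratio of -0.04 (0.05 at 6 h and -0.05 at 24 h). Over all 79658 regions shared at 72 h, 50927 were higher and 28731 lower. The median over all shared regions was 0.06, 0.12 and 0.15, and over all distal ones 0.12, 0.23 and 0.27. The sign of the TRPS1 medians is not settled. Without scaling they were 0.49, 0.33 and 0.20, and among peaks with an AUC of at least 400 the later medians were 0.07 and 0.05. With scaling over all shared regions the TRPS1 medians were -0.02, -0.17 and -0.19, and per covered base -0.05, -0.10 and -0.05. Of 21, 20 and 18 shared TRPS1 regions 0 were at least 2-fold higher at 6, 24 and 72 h, where 3.45, 8.37 and 10.5% of all shared regions were. The highest ratio at 72 h, 0.65 on the log2 scale, belonged to an intergenic region 335 kb downstream of the main TSS (831 in solvent, 1305 at 72 h).

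Of the 6 TRPS1 regions 2.62 to 8.04 kb downstream of the main TSS, 2 were lower at 72 h than in solvent, 2 were lost and 2 were listed at 6 h alone. Within TRPS1 introns, the region 7.21 kb downstream of the main TSS measured 512 in solvent and 486, 318 and 202 at 6, 24 and 72 h, a log2 ratio of -1.34. It overlaps an internal TRPS1 TSS and was the 1 of 18 shared regions at least 2-fold lower at 72 h, where 1.23% of all shared regions were (0.215% at 6 h and 0.935% at 24 h). The region 2.62 kb downstream measured 278 in solvent, then 288 and 219, and had no peak at 72 h. The region 5.16 kb downstream measured 231 in solvent and 260 at 6 h and had no peak at 24 or 72 h. Both were close to the threshold while listed, and both were lost at 72 h.

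The third lost TRPS1 region was stronger. It lies in an intron 248 kb downstream of the main TSS (chr8:115420447-115420717) and measured 638 in solvent, 525 at 6 h and 218 at 24 h, with no peak at 72 h. Its neighbour 249 kb downstream, listed at 1497 in solvent, still measured 1338 at 72 h. The 3 lost regions make 8.11% of the 37 TRPS1 regions with a peak in either list (exact 95% interval 1.70 to 21.9%), against 2.43% over all regions. At 6 h TRPS1 had lost 0 of 40 and at 24 h 1 of 35, beside 0.551 and 1.31% of all regions.

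Of the 46 TRPS1 regions, 10 (21.7%) had a peak in all 3 TGFβ1 lists and none in solvent, against 14.3% of all regions. The 5 described first were ranked by their 72 h value. The strongest, in an intron 167 kb downstream of the main TSS, measured 495 at 6 h, 574 at 24 h and 769 at 72 h. The intronic region 233 kb downstream measured 229, 432 and 621. An intergenic region 203 kb upstream measured 172, 282 and 479. The other 2 of the 5, 30.6 kb and 342 kb downstream, measured 208, 347 and 471, and 304, 315 and 443. An intergenic region 193 kb upstream, outside these 5, measured 243, 656 and 318 and was highest at 24 h.

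Late and early regions both occurred at TRPS1. A region 18.8 kb upstream of the main TSS, in a TRPS1 intron, was without a peak in solvent and at 6 h and measured 522 at 24 h and 670 at 72 h. It was named after its values were seen. In the comparison of 72 h with 6 h, 5 of 45 TRPS1 regions (11.1%) had a peak at 72 h only, against 12.8% of all regions. The reverse, a peak at 6 h and none at 72 h, held for 11 of 45 (24.4%, exact 95% interval 12.9 to 39.5%), against 6.56% of all regions. Most of these 11 had no solvent peak, and the scaled threshold was 147 at 6 h and 169 at 72 h. TRPS1 was chosen by its peaks in the 72 h list, so these shares are given as a description. Of the 25 TRPS1 regions without a solvent peak, 6 were listed at 6 h alone, with scaled AUC from 149 to 219, and 4 at 72 h alone, from 179 to 291.

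TRPS1 regions lay in introns (36) or beyond the gene (10), and none had its summit in an exon. Of the 16 regions gained at 72 h, 11 were in introns and 5 intergenic. All 3 lost regions were intronic. At the edge of the window, the last region inside on the low-coordinate side, 81.4 kb from the gene, measured 443 at 72 h. The first outside, 120 kb away, measured 696 and was likewise without a solvent peak. On the other side the last region inside, 66.0 kb from the gene, had no peak at 72 h, and the first outside, 117 kb away, measured 288.

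GATA2 had a promoter of moderate AUC that was nearly level, and a group of upstream regions that were higher in each TGFβ1 list. Its window held 9 regions with a solvent peak and 11, 13 and 12 with a peak at the successive times of TGFβ1. The main promoter region measured 1636 in solvent and 1714, 1504 and 1751 at 6, 24 and 72 h. A weaker region over a coding exon, 0.891 kb downstream, measured 370 in solvent and 417 to 459 under TGFβ1.

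The 3 GATA2 regions printed above, 59.7 to 66.3 kb upstream in intergenic DNA, had the highest ratios of the window at 72 h. At 59.7 kb the scaled AUC was 496 in solvent and 845, 1309 and 1350 at 6, 24 and 72 h, which is 2.72-fold higher at 72 h. At 66.3 kb it was 370, 726, 1081 and 901 in the same order (2.43-fold), and at 61.5 kb 300, 516, 693 and 637 (2.12-fold). All 3 were thus already higher at 6 h and more than 2-fold higher at 24 h. They make up the 3 of 9 shared GATA2 regions (33.3%, exact 95% interval 7.49 to 70.1%) that were at least 2-fold higher at 72 h, beside 10.5% of all shared regions. The nearest annotated TSSs are those of the pseudogene TMED10P2 and of ENSG00000286806, 8844 to 11234 bp away, so the window rule and not proximity links these regions to GATA2. The other 6 shared regions ranged from -0.19 to 0.30 on the log2 scale at 72 h.

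Gained GATA2 regions were few and weak, 2 of 11 at 6 h, 4 of 13 at 24 h and 3 of 12 at 72 h. The shares, 18.2, 30.8 and 25.0%, have exact intervals that include the shares over all regions. A region 1.67 kb upstream of the main TSS, which overlaps a TSS of the antisense gene GATA2-AS1, was the only one with a peak in all 3 TGFβ1 lists and none in solvent, at 392, 319 and 237. Its neighbour 2.08 kb upstream was listed at 6 h alone, at 428. No GATA2 region was lost at any time.

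**Figure D2:**
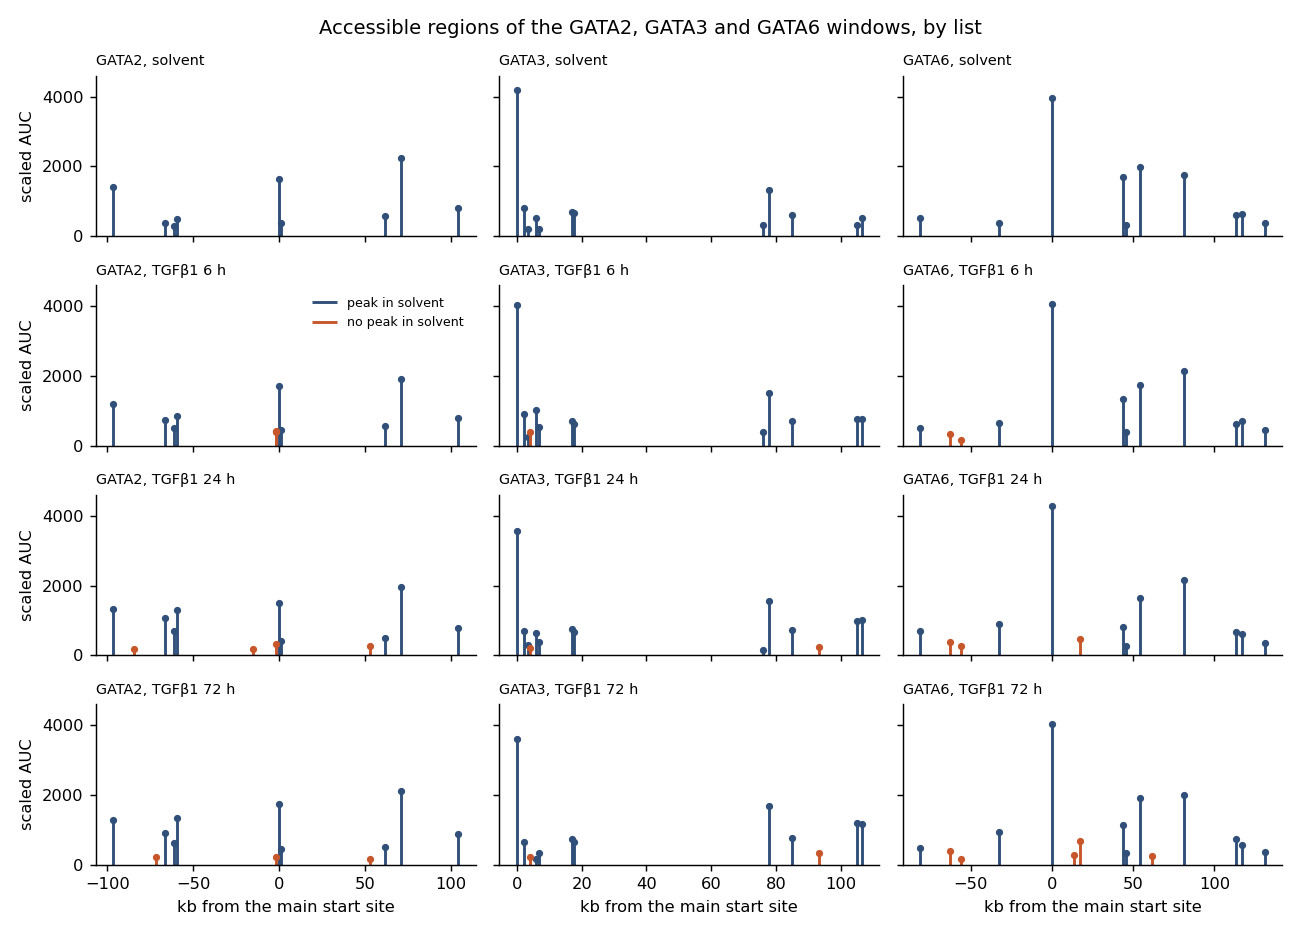
Scaled AUC (vertical axis) of every accessible region of the GATA2, GATA3 and GATA6 windows (columns) against kb from the main start site, positive downstream, 1 row per list. The upstream GATA2 trio reaches 1350 at 72 h from 496 or less in solvent, the GATA3 pair 105 and 106 kb downstream reaches 1208 and 1160, and the main GATA6 promoter stays between 3956 and 4291.

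At GATA3 the differences lay in the introns and far downstream of the gene. The promoter region, 2023 bp wide, measured 4198 in solvent and 4043, 3558 and 3615 at 6, 24 and 72 h. Downstream of the gene, the region at 105 kb measured 313 in solvent and 772, 979 and 1208 at 6, 24 and 72 h, which is 3.87-fold higher and the largest ratio of the 4 windows. Its neighbour at 106 kb measured 536, 769, 1004 and 1160 (2.16-fold). Both were higher at each later time, and they are 2327 and 1047 bp from the TSS of the pseudogene PRPF38AP1. The first region outside the window on this side, 108 kb from the gene, measured 225 in solvent and 719, 636 and 887 under TGFβ1.

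The GATA3 intron behaved differently over time. The region 5.98 kb downstream of the main TSS, which overlaps an internal GATA3 TSS, measured 512 in solvent and 1016, 649 and 178 at 6, 24 and 72 h. It was thus higher than solvent at 6 h (log2 0.99) and lower at 72 h (log2 -1.52). The 72 h value was 0.175 of the 6 h value, but it was close to the scaled threshold of 169. The region 6.69 kb downstream was likewise highest at 6 h, at 210, 530, 373 and 346. A further pair of intronic regions was weak. That at 3.42 kb measured 209, 256 and 303 and was without a peak at 72 h, and that at 4.12 kb had no solvent peak and measured 392, 204 and 215. The region over the coding exon 2.09 kb downstream differed less, at 812, 921, 709 and 644 in the order of the lists.

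Across its 10 regions shared at 72 h, GATA3 had a median log2 ratio of 0.24, beside 0.23 at 6 h and 0.24 at 24 h. At 72 h, 7 were higher and 3 lower than in solvent, beside 50927 higher and 28731 lower of all 79658 shared regions. Of the 10, 2 were at least 2-fold higher and 1 at least 2-fold lower, where 10.5 and 1.23% of all shared regions were. The sign of these medians is not settled. Per covered base the 6 h median was -0.02 and the 72 h median -0.03, and in a window of 50 kb the latter was -0.11. Gained regions numbered 1 of 13, 2 of 14 and 2 of 14 (7.69, 14.3 and 14.3%), beside 22.9, 29.8 and 29.3% of all regions, shares that the exact intervals include. Of the 14 GATA3 regions 8 were proximal, and over all proximal regions 16.2, 19.7 and 17.8% were gained. Lost regions numbered 2 of 14 at 72 h (exact 95% interval 1.78 to 42.8%), beside 2.43% of all regions. The second lost region, 76.1 kb downstream, measured 326 in solvent, 382 at 6 h and 161 at 24 h.

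GATA6 had a level promoter and a few weak gained regions. The main promoter region, which GATA6 shares with the antisense gene GATA6-AS1, measured 3956 in solvent and 4078, 4291 and 4029 at 6, 24 and 72 h. There were 10 regions with a solvent peak, then 12, 13 and 15 with a peak under TGFβ1, and none was lost, although with lists of equal length 1 was lost at 24 h and 1 at 72 h. Gained regions made up 2 of 12 (16.7%), 3 of 13 (23.1%) and 5 of 15 (33.3%), the last with an exact 95% interval from 11.8 to 61.6%. Over all regions the gained share was 22.9, 29.8 and 29.3%.

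The GATA6 intronic region 17.4 kb downstream was without a peak in solvent and at 6 h and measured 477 at 24 h and 689 at 72 h. It was named after its values were seen. A region over a coding exon, 13.4 kb downstream, was listed at 72 h alone, at 267. Upstream, the region at 62.8 kb had no solvent peak and measured 329, 366 and 390, and that at 56.0 kb measured 178, 262 and 175. Between them and the promoter, the shared region 33.0 kb upstream measured 386 in solvent and 644, 892 and 931 at 6, 24 and 72 h (2.42-fold), the 1 of 10 shared GATA6 regions at least 2-fold higher at 72 h, beside 10.5% of all shared regions.

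The clearest lower value at GATA6 was at the TSS of ENSG00000264825, 43950 bp downstream. It measured 1697 in solvent and 1344, 811 and 1144 at 6, 24 and 72 h, so it was lowest at 24 h (log2 -1.06) and partly higher again at 72 h (log2 -0.57). The median over the shared GATA6 regions was 0.08, 0.03 and 0.03. Without the scaling it was 0.53, 0.41 and 0.27, and with scaling over all shared regions 0.02, -0.09 and -0.12.

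**Figure D3:**
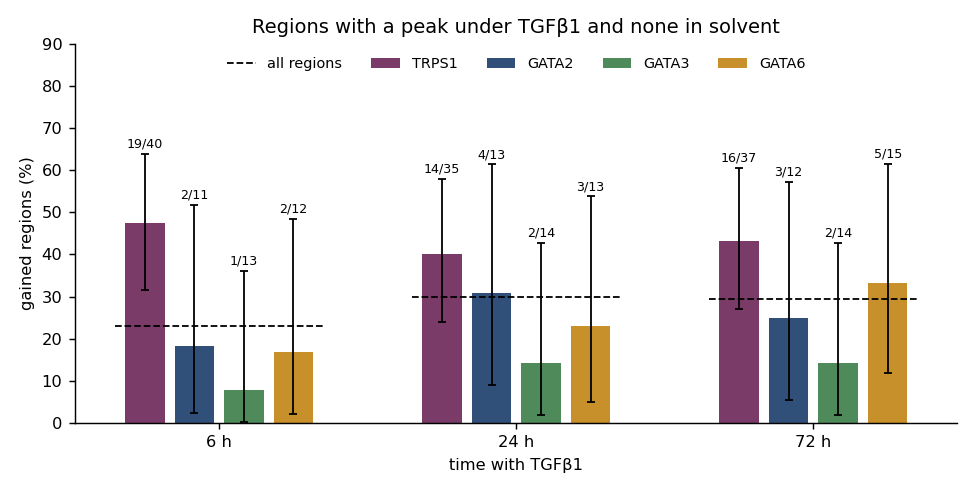
Gained regions as a percentage of regions with a peak in solvent or the TGFβ1 list, by gene and time, with exact 95% binomial intervals for counting error and the share over all regions as a dashed line. That line mixes distal regions (35.4% gained at 72 h) and proximal ones (17.8%). TRPS1 is above the line at each time (47.5, 40.0 and 43.2%), the contrast it was chosen by, with intervals that include the line at 24 and 72 h, and GATA3 is below it (7.69, 14.3 and 14.3%) with intervals that include the line.

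**Figure D4:**
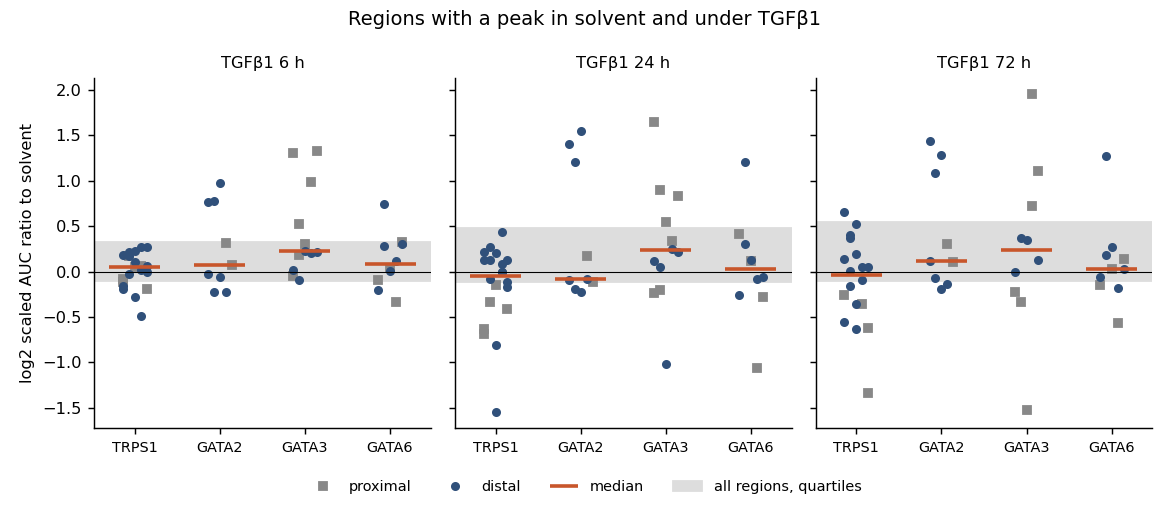
Log2 ratio of scaled AUC to solvent for each region with a peak in both lists, by gene and time, with the median per gene and a grey band for the quartiles over all shared regions. At 72 h the TRPS1 regions run from -1.34 to 0.65, and the 6 regions above 1 belong to GATA2 (3), GATA3 (2) and GATA6 (1).

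Summed over each window, scaled AUC at 72 h was 1.11 times solvent for TRPS1, 1.28 for GATA2, 1.12 for GATA3 and 1.17 for GATA6, beside 1.20 over all regions. The covered length went from 12469 to 16058 bp at TRPS1, 4085 to 5988 bp at GATA2, 5935 to 6923 bp at GATA3 and 5827 to 7773 bp at GATA6. Scaled AUC per covered base was lower at 72 h than in solvent in each window, at 2.00 against 2.33, 1.76 against 2.01, 1.68 against 1.75 and 1.84 against 2.10. Over all regions it was 2.23 against 2.44.

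The factors themselves bind GATA motifs, and the motif was counted in the same windows. In the TRPS1 window it stood in 11 of 22 distal regions without a solvent peak (50%, exact 95% interval 28.2 to 71.8%) and in 1 of 15 with one (6.67%, 0.169 to 31.9%). The split by solvent peak was made after the values were seen. Over all distal regions the shares were 28.3% without and 23.3% with a solvent peak. The 22 TRPS1 regions include some with no peak at 72 h, so the 50% does not describe the regions open at 72 h. Among distal TRPS1 regions gained at 72 h the motif stood in 5 of 15 (33.3%, exact 95% interval 11.8 to 61.6%). Of all distal regions gained at 72 h, 29.0% held it, a share inside that interval. The TRPS1 split was present within 50 bp of the summit (36.4 and 6.67%) but not over whole regions (50 and 53.3%), which are wider where a solvent peak was present. In the 3 GATA windows together the motif stood in 2 of 9 and 3 of 18.

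Of the 5 TRPS1 regions with a peak in each TGFβ1 list only that were strongest at 72 h, those 342 kb, 233 kb and 167 kb downstream held a GATA match, and the first 2 of these held AP-1 as well. AP-1 stood in 9 of 22 distal TRPS1 regions without a solvent peak (40.9%) and 7 of 15 with one (46.7%), where all distal regions had 37.5 and 37.6%. The palindromic SMAD motif stood in 1 of the 90 regions, an intergenic TRPS1 region 193 kb upstream that was highest at 24 h, and in 0.942% of all regions. TEAD stood in 4 of 46 TRPS1 regions (8.70%) and in 15.9% of all regions. The 5 lost regions of the 4 windows held none of the 4 motifs, a count of 0 of 5 whose exact interval reaches 52.2%.

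**Figure D5:**
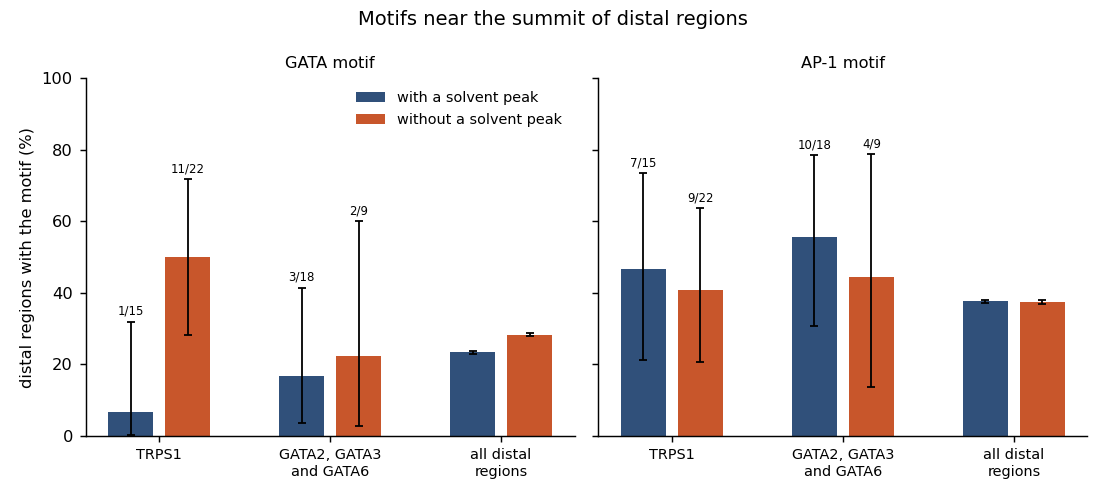
Share of distal regions with a GATA or AP-1 motif within 100 bp of the summit (%), for the TRPS1 window, the 3 GATA windows together and all distal regions, split by the presence of a solvent peak, with exact 95% binomial intervals. For the GATA motif the TRPS1 bars stand at 6.67 and 50% and the bars over all distal regions at 23.3 and 28.3%, while the AP-1 bars lie between 37.5 and 55.6%. The bars without a solvent peak include regions with no peak at 72 h. Of the distal TRPS1 regions gained at 72 h, 33.3% held the GATA motif.

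The other genes of the family and of the pathway gave context for the members. GATA1, GATA4 and GATA5, which act mainly in blood, heart and endoderm, had no region at a TSS in any list, unlike GATA2, GATA3 and GATA6. Of 5 cofactors, ZFPM1, LMO2 and LDB1 had a TSS region and ZFPM2 and TAL1 had none. At 72 h the windows of the 5 held 2 to 22 gained regions, most of them in that of ZFPM2, which encodes the GATA cofactor FOG2. The ZFPM2 window held 54 regions, of which 22 were gained, 2 lost and 27 shared at 72 h. At TRPS1 these counts were 16, 3 and 18. Gained and shared regions numbered 5 and 8 at ZFPM1, 2 and 14 at LMO2, 4 and 9 at TAL1, and 4 and 11 at LDB1. Over all regions with a peak in either list 29.3% were gained. LMO2, which bridges GATA factors to LDB1, measured 1273 at its TSS in solvent and 1765, 1802 and 1480 under TGFβ1.

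All 11 genes for subunits of complexes that TRPS1 recruits, such as CHD4, HDAC1 and CTBP2, had a TSS region in solvent, from 2470 to 9767. Their window medians at 72 h were above 0 on the log2 scale for 4 and below it for 7, with a median of -0.06, beside 0.04 over 11889 genes. Whether these signs hold under other settings was not tested. At the TSS, MTA1 of the NuRD complex measured 2781 in solvent and 1497 at 72 h. The histone deacetylase HDAC1 measured 2470 and 2426, and the histone demethylase KDM1A 2531 and 2842. Among 8 luminal genes linked to GATA3, 5 had a TSS region in solvent. FOXA1, the luminal pioneer factor, measured 5216 in solvent and 4974 at 72 h, and ESR1, the oestrogen receptor, 298 in solvent, 370 at 6 h, 302 at 24 h and no peak at 72 h. This ESR1 TSS region was weak. The shared regions of the ESR1 window had median log2 ratios of 0.34, 0.48 and 0.67 at 6, 24 and 72 h. Among the luminal windows the 72 h median was above 0 for 4 and below it for 3, with a median of 0.15. Those below it were FOXA1, with only 3 shared regions, KRT8 and KRT18. The last 2 are both on chromosome 12, and their windows may hold the same regions. PGR, ELF5 and TFF1 had no TSS peak in any list.

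The genes whose shared regions followed the members most closely were found over 3 conditions only, by the Euclidean distance of the window medians at 6, 24 and 72 h. For TRPS1 these were BAHD1, RMDN3 and TSPO, at distances of 0.010 to 0.012, but 1802 of 11843 genes lay within 0.1. For GATA6 they were TLCD5, GSTO1 and SH2D3A, with 1664 genes within 0.1. GATA3 was closest to GPD2, IGFBP7 and ARHGAP42 and GATA2 to RFX7, ENSG00000267261 and HCRT, with 314 and 337 genes within 0.1.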

How the data were processed

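ATAC-seq was measured in MCF10A cells with solvent or TGFβ1, 2 replicates in each of 4 groups. According to the submitters' processing notes and the described methods, the authors used Trimmomatic 0.38 for trimming, Bowtie2 2.4.5 for mapping to GRCh38, Picard and SAMtools 1.4.1 to drop duplicate, mitochondrial and poorly mapped reads, and Genrich 0.5 (ATAC-seq mode) to call peaks on the replicates of a group jointly. The deposited lists give each peak's signal as AUC, of at least 200, and its −log10 q value, which the authors computed. The 4 lists were assigned to groups by their names.

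Peaks were merged (1 bp or more shared) and annotated with GENCODE 44, with proximal meaning within 3 kb of any TSS. All 429018 peaks lay inside the GRCh38 chromosomes. AUC was summed per region and scaled as given in the report. No fold was computed against a list without a peak. Intervals are exact (Clopper-Pearson) at 95%. Python 3.11.15, pandas 2.3.3, numpy 2.4.6, scipy 1.17.1 and pysam 0.24.0 were used, and the steps were tested on simulated data. The members and gene lists were chosen with earlier results of these data known. The named regions are, per gene, the main promoter, up to 5 gained in all TGFβ1 lists, up to 5 lost at 72 h and up to 3 with the largest and the smallest ratio at 72 h. Further regions (neighbours and late peaks) were named after their values were seen. TRPS1 sequences are not printed. Alternatives were lists of equal length, peaks with an AUC of 400 or more, windows of 50 kb, the nearest TSS, other scalings, AUC per covered base, other motif windows and, added after seeing the data, a scaled AUC of 200 for gained regions and the motif split by solvent peak.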

Additional observations from a re-analysis of the deposited data

How the results depend on the processing

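Of 217 values under other settings, 56 moved, meaning that a count differed by more than 1.5 times or a median or share fell outside the exact or order-based interval of the reported one. Gained regions moved most. With lists of equal length TRPS1 had 2, 6 and 8 at 6, 24 and 72 h, GATA2 and GATA3 had 0 at 24 and 72 h, and GATA6 had 1 at 6 h and 2 at 72 h. Lost regions then numbered 1, 4 and 5 at TRPS1, 1, 2 and 4 at GATA3, and 1 at 24 and 72 h at GATA6. With a minimum AUC of 400 in every list, which also removes weak solvent peaks, TRPS1 gained 2, 7 and 8, and at 6 h GATA2 gained 5, GATA3 5 and GATA6 4. When only gained regions with a scaled AUC of at least 200 counted, TRPS1 had 10 at 6 h and 9 at 24 h, GATA2 had 2 at 24 h and GATA6 had 1 at 6 h. When regions went to the gene of the nearest TSS, GATA2 had 0, 1 and 0, GATA3 had 1 at 24 and 72 h and GATA6 had 0 at each time. In a window of 50 kb GATA3 had 1 at 24 and 72 h and GATA6 had 0, 1 and 3.

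The sign of the median log2 ratio differed from the reported one in 22 of 81 cases, 8 of them at TRPS1, 5 each at GATA2 and GATA6 and 4 at GATA3. Without scaling every median was positive, at 0.49, 0.33 and 0.20 for TRPS1, 0.51, 0.30 and 0.37 for GATA2, 0.67, 0.62 and 0.49 for GATA3 and 0.53, 0.41 and 0.27 for GATA6. Scaling over all shared regions gave -0.20 for GATA2 at 24 h. The GATA3 median at 72 h was -0.11 in a window of 50 kb and by nearest TSS, and per covered base it was -0.03, with -0.02 at 6 h. In the 3 GATA windows the GATA motif share was 4.55% and the TEAD share 2.27% within 50 bp of the summit, and the TEAD share was 36.4% over whole regions. Over whole regions TRPS1 had 50% for GATA and 28.3% for TEAD. Apart from the shorter or longer sequence searched and the fewer peaks kept, the cause was not tested. No paired analysis was possible because both replicates of a group had been pooled into 1 list, and for the same reason no replicate could be left out. The lists carry no read depth, so weak regions near the threshold cannot be told apart from regions missed in the other list.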
